A study of Mus musculus with 24 samples.

Results

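The genes that encode the proteins of the cytosolic ribosome were followed in the hippocampus of mice that become epileptic after loss of *Tsc1*. Members were the protein-coding genes of the GENCODE mouse annotation whose symbol is Rpl or Rps followed by a number, with an optional letter a, x, y or l and further digits, together with *Rplp0*, *Rplp1*, *Rplp2* and *Rpsa*. This rule found 83 of the 55385 gene identifiers in the count data, 51 for the large subunit and 32 for the small subunit, and used no measured value. Of these 83 genes, 81 had enough counts to be tested in each comparison. The other 2 were *Rpl10l*, which had no count in any mouse, and *Rpl39l*, with a mean of 6.08 counts per mouse.

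RNA was sequenced from 24 adult mice of both sexes, 4 in each of 6 groups. All mice carried floxed *Tsc1* alleles (Tsc1f/f) and received tamoxifen. Controls (*Tsc1-Cre-*) carried no Cre, kept *Tsc1* and were taken on day 8. Mice with the Tg (Camk2a-CreERT2+) transgene (*Tsc1-Cre+*) lost *Tsc1* and were taken on day 4, 6, 8 or 13, counted from the start of the tamoxifen injections. The last group, *Tsc1-Cre+*-Rap 4, lost *Tsc1* in the same way, received 10 mg/kg rapamycin daily from day 4 and was taken on day 13. There was no rapamycin-treated control group, and no control was taken on day 4, 6 or 13. In comparisons of those days with controls, time since tamoxifen and loss of *Tsc1* cannot be told apart. Cre is driven by *Camk2a* sequence, so that the deletion is limited to CAMK2A-expressing neurons while the RNA came from whole hippocampi, in which fewer cells of a type and less RNA per cell cannot be told apart.

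Each ribosome holds 1 copy of most of these proteins, built around the rRNAs into a small subunit, which reads the mRNA, and a large subunit, which joins the amino acids. TSC1 and TSC2 together restrain the kinase complex mTORC1, which rapamycin inhibits. mRNAs of ribosomal proteins begin with a 5′ terminal oligopyrimidine (TOP) tract, a C followed by an unbroken run of C and T (C and U in the RNA), through which mTORC1 governs how strongly they are translated. Loss of TSC1 is therefore known to raise the translation of these mRNAs, a step that counts of RNA do not measure.

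The transcription start is where the TOP tract lies, and the following windows are shown because mTORC1 signalling acts through the sequence at this place. RefSeq (GRCm38.p6) gave 75 annotated starts for 63 of the 83 genes. At 13 of these 75 starts (17.3%), in 13 genes, the first base was C and at least the next 4 bases were C or T on the strand of the gene, against 823 of 32851 starts of all genes (2.51%). Each line runs 5′ to 3′ on the strand of the gene, from 10 bases before the annotated start to 20 bases from it, with the run of C and T that begins at the start in capitals. The first 5 genes are among the 13.
*Rps6*, chr4:86857348-86857377, minus strand: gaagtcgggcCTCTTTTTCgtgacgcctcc
*Rpl15*, chr14:18270967-18270996, minus strand: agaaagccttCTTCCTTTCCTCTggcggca
*Rps27*, chr3:90213629-90213658, minus strand: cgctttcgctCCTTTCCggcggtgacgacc
*Rps21*, chr2:180257369-180257398, plus strand: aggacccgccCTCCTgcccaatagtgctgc
*Rplp2*, chr7:141447641-141447670, plus strand: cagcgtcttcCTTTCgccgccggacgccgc
*Rps2*, chr17:24720053-24720082, plus strand: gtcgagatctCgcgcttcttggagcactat
*Rplp0*, chr5:115559457-115559486, plus strand: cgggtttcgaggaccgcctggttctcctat
*Rpsa*, chr9:120127756-120127785, plus strand: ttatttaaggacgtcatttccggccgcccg
The last 3 genes were among those with the largest changes over time, and no such run begins at their annotated starts. Annotated starts can lie some bases away from those used in the hippocampus, so a start without the run says nothing about the mRNA in these mice. On day 13, 7 of the 13 genes with the run and 29 of the other 48 tested genes with an annotated start passed as higher than in controls. Of all genes, 15.6% did. The medians of the 13 and the 48 were 0.29 and 0.30 on the log2 scale. For the reason just given, these values do not compare mRNAs with and without a TOP tract.

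The deleted gene and the libraries were checked first. *Tsc1* measured 109, 103, 106 and 103 CPM (counts relative to library size, after TMM scaling) in the 4 controls and between 57.4 and 81.7 CPM in the 20 *Tsc1-Cre+* mice, with no overlap, so every library matched its Cre label. *Tsc1* does not check the labels of day or treatment. Total counts per mouse ranged from 28208561 to 126435936, and the widest spread within a group was on day 13, from 38423852 in mouse C to 126435936 in mouse B. By their sample numbers, day 8 mice shared 2 series with the controls, whereas each remaining group had numbers outside those 2, and there series and group cannot be told apart. None of the 7 markers of hippocampal excitatory neurons was at 0 in any group. Markers of other cell types differed between groups too. The summed level of 7 choroid plexus markers ranged from 227 to 2851 CPM among controls alone, that of 6 microglia markers from 195 to 232 CPM in controls and 143 to 164 CPM under rapamycin, and that of 5 endothelial markers from 152 to 189 CPM in controls and 118 to 128 CPM under rapamycin. Microglia markers were also below every control on day 6 (171 to 181 CPM), as were 6 astrocyte markers (4466 to 4812 CPM against 4886 to 5333 CPM). The summed level of 5 erythrocyte markers was 58.9 to 75.7 CPM in controls and below that in all mice on day 4 (35.5 to 45.1 CPM), day 6 (35.1 to 46.1 CPM), day 13 (31.8 to 49.3 CPM) and under rapamycin (39.1 to 52.1 CPM). Markers of oligodendrocytes, GABAergic interneurons and excitatory neurons overlapped with controls in every group. Their part in the results was not tested.

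Across the 6 groups, the summed ribosomal protein RNA was lowest on day 4 and near the control level on day 6, and whether day 13 or rapamycin was highest turned with the scaling. The 83 genes together took 0.684% to 0.720% of all counts in controls and 0.643% to 0.663% on day 4. The share was 0.660% to 0.700% on day 6, 0.651% to 0.794% on day 8, 0.694% to 0.900% on day 13 and 0.762% to 0.836% under rapamycin. The mean share was highest under rapamycin, at 0.797% against 0.775% on day 13 and 0.699% in controls, and day 13 mice overlapped with controls. In CPM, which take TMM factors into account, day 13 was highest. The summed level was 6787 ± 136 (SD, n = 4) in controls, 6448 ± 75.5 on day 4, 6774 ± 205 on day 6, 7248 ± 588 on day 8, 8305 ± 967 on day 13 and 7727 ± 264 under rapamycin. Relative to controls the means differed by -4.99% on day 4, 6.80% on day 8, 22.4% on day 13 and 13.8% under rapamycin. These sums are given as a description, without a test.

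**Figure D1:**
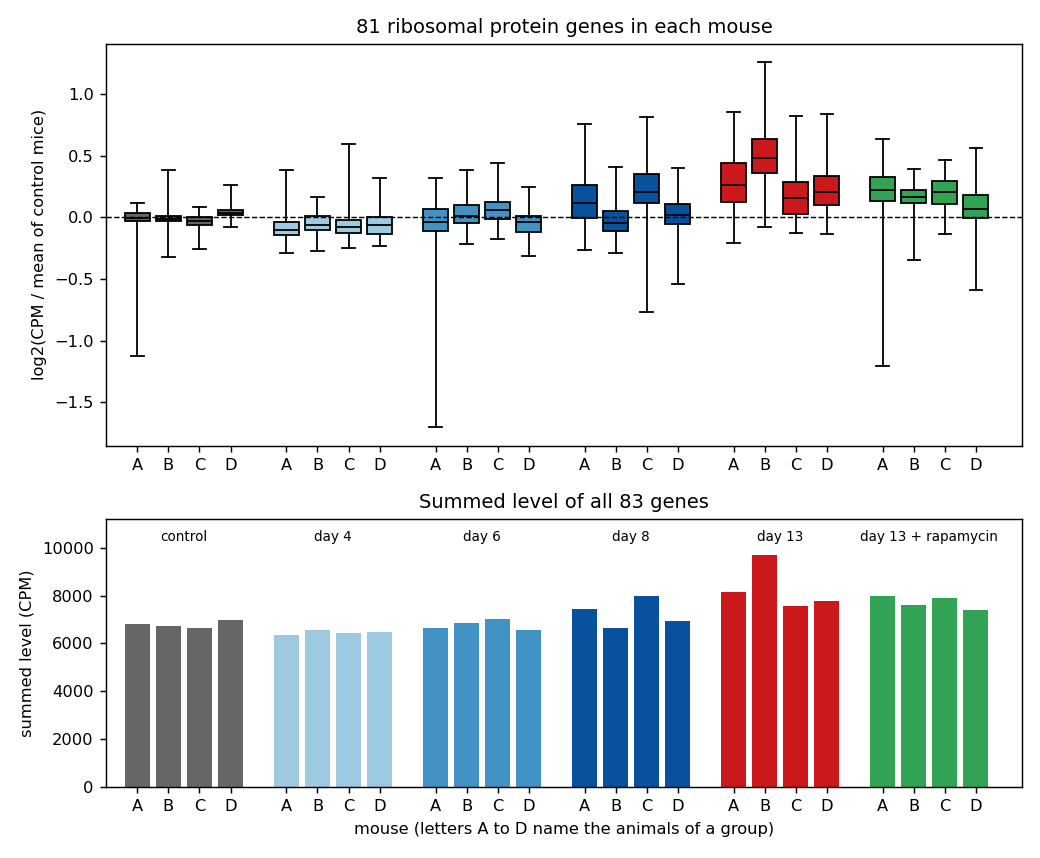
Ribosomal protein genes in each of the 24 mice. Upper panel, log2 ratio of the CPM of 81 genes to the mean of the 4 controls, with boxes from the first to the last quartile, the median as a line and whiskers to the lowest and highest gene. Lower panel, summed CPM of all 83 genes. All 4 day 4 mice lie under the lowest control (6633 CPM), and all 4 day 13 and all 4 rapamycin mice lie above the highest (6959 CPM).

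The subunits moved in parallel. The summed small-subunit level was 22.7% above controls on day 13 and 14.4% above them under rapamycin, and the large-subunit level was 22.1% and 13.5% above them. Within groups, mice differed most on day 8 and day 13. Day 8 mice A and C had summed levels of 7448 and 7977 CPM, while B and D, with 6652 and 6916 CPM, lay within the range of the controls. Day 13 mouse B, the deepest library of the series, had 9710 CPM against 8158, 7578 and 7773 CPM in A, C and D. The coefficient of variation of a gene among the 4 mice had a median over the 81 genes of 3.44% in controls, 3.15% on day 4, 4.34% on day 6, 8.45% on day 8, 11.8% on day 13 and 6.06% under rapamycin. Over the 16122 genes with a mean count over 100, the medians were 6.37%, 6.12%, 5.67%, 9.39%, 14.5% and 8.21% in the same order. They too were highest on day 8 and day 13. An F test of edgeR over the 6 groups called 76 of the 81 genes at an adjusted p under 0.05, where 41.9% of all 27110 genes tested were called. The 5 that did not pass were *Rpl13* (adjusted p = 0.0552), *Rpl24*, *Rps10*, *Rps16* and *Rpl3l*, named here because they are the exceptions.

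To compare the genes with each other, levels were divided by the length of the transcript. The 3 highest were *Rplp1*, an acidic protein of the stalk of the large subunit, with a mean over 24 mice of 399 CPM per kb, *Rpl9* with 279 and *Rps29* with 270 CPM per kb. The lowest were the paralogs *Rpl3l* with 0.230 and *Rpl39l* with 0.187 CPM per kb. The order depends on the length used. With all exons of the gene in place of 1 transcript, *Rpl9* moved from rank 2 to rank 26, while *Rplp1* and *Rps29* kept ranks 1 and 3. *Rpl24* and *Rps10*, singled out after their values were seen, had mean counts of only 126 and 162 per mouse. Many members have processed pseudogenes with nearly the same sequence, 294 named ones for 56 of the 81 genes, and the treatment of reads that match several places is not given in the sources used here, so low counts of a member may be losses in counting. Adding the counts of the named pseudogenes to their parents left every call among the genes named here in place. These counts are small beside those of the parents, with means of 1.29 against 7729 per mouse for *Rplp0* and 224 against 8427 for *Rps2*. The addition does not bring back reads left out of the counts, so such losses were not tested.

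**Figure D2:**
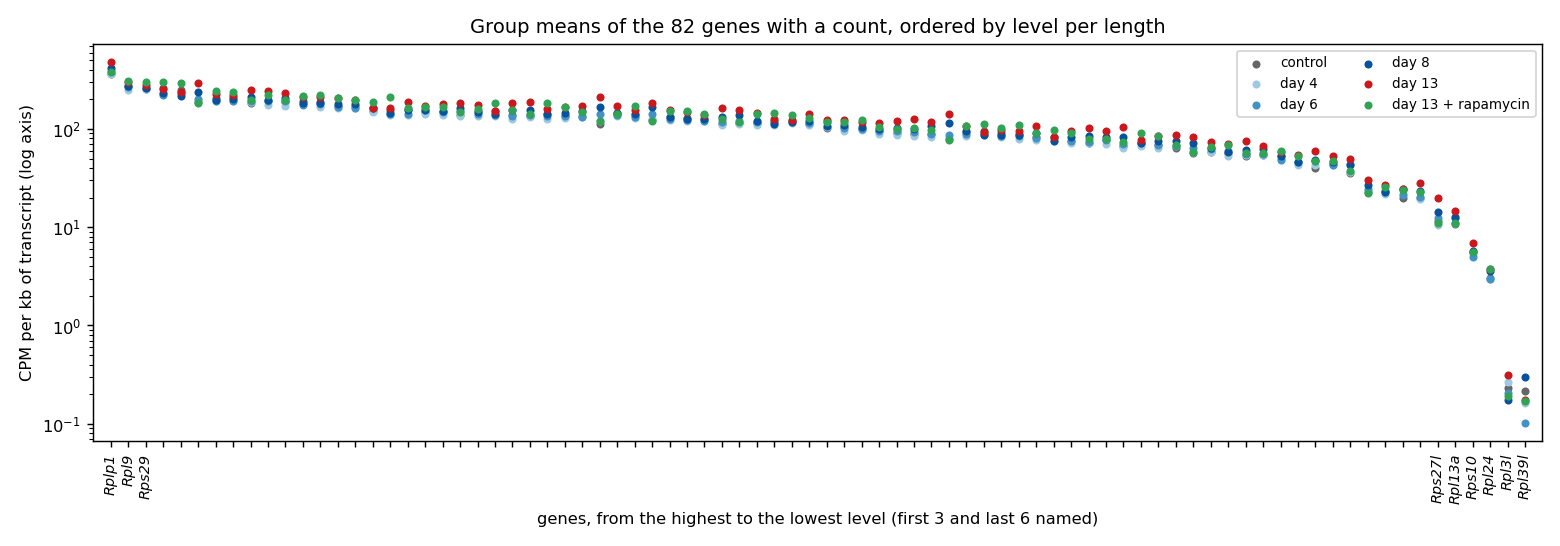
Mean level of each group in CPM per kb of transcript (log axis) for the 82 genes with a count, ordered by the mean over all mice, with the first 3 and the last 6 named. *Rplp1* is highest with 399 CPM per kb and the steep fall at the right is made of *Rps27l*, *Rpl13a*, *Rps10*, *Rpl24*, *Rpl3l* and *Rpl39l*.

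Day 4 was compared with controls, which were taken on day 8, to see whether ribosomal protein RNA differed before the first seizures. No member was higher and 7 of 81 were lower at an adjusted p under 0.05 in edgeR's quasi-likelihood test, which was used for all comparisons of 2 groups, adjusted by Benjamini-Hochberg over all 25308 genes tested. Of all genes, 2.61% were called higher and 1.56% lower. At an unadjusted p under 0.05, 1 member was higher and 32 were lower (18.4% of all genes passed in either direction), and DESeq2 called 0 higher and 21 lower. The share of all genes called by DESeq2, or by any other alternative fit such as the correction for GC content and length, is not given, here or below. Counts of members from these fits therefore have no background to be read against. The shares given for all genes belong to the main fit. The median log2 fold change over the 81 genes was -0.07, against 0.00 over all genes, and 30 members were lower in all 4 day 4 mice than in every control (5.72% of all genes were). *Rpl10*, an X-linked protein of the large subunit that is needed to join the subunits, measured 126, 128, 122 and 133 CPM in controls and 111, 112, 107 and 113 CPM on day 4, a fall by 12.9% (log2 fold change -0.20, SE 0.035, adjusted p = 0.00985). *Rps27*, of the small subunit, measured 90.2, 86.4, 87.0 and 93.2 CPM in controls and 76.6, 80.0, 77.7 and 81.1 CPM on day 4 (log2 fold change -0.18, SE 0.035, adjusted p = 0.0178). *Rps3a1*, also of the small subunit, measured 137, 142, 140.2 and 141 CPM and 123, 130.3, 125 and 119 CPM (log2 fold change -0.17, SE 0.035, adjusted p = 0.0198). Controls and day 4 mice did not overlap for any of the 3. The call of *Rps27* was lost without day 4 mouse B or C or control mouse D, and that of *Rps3a1* without control mouse B or D, with adjusted p up to 0.344 and 0.444 among all alternatives. Of the other genes that fell, *Rpl17* did so by 0.17, *Rpl21* by 0.16 and *Rpl26* by 0.16 on the log2 scale. These small falls rested on the particular fit. The count was 0 in a fit of all 24 mice and 0 with the level of *Xist*, which stands for sex, as a covariate, and 1 to 4 without any 1 of the 4 day 4 mice or of control mice B and D.

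On day 6, the test called 7 of 81 genes higher and 6 lower (8.64% and 7.41%), where 6.24% and 3.81% of 25057 genes were called, so the count of rises was near the background. The median log2 fold change was -0.01 against -0.02 over all genes. *Rps2*, a protein at the mRNA entry of the small subunit, measured 112, 112, 108 and 114 CPM in controls and 139, 146, 151 and 132 CPM on day 6, without overlap, a rise by 26.4% (log2 fold change 0.34, SE 0.040, adjusted p = 0.000217). *Rpl22l1*, the paralog of *Rpl22*, measured 21.2, 19.9, 16.3 and 20.6 CPM in controls and 24.1, 23.8, 26.1 and 22.9 CPM on day 6 (log2 fold change 0.30, SE 0.077, adjusted p = 0.0231). *Rpl27* rose by 0.22 (adjusted p = 0.0357) and *Rpsa*, which is also known as the laminin receptor, by 0.20 (adjusted p = 0.00279), and *Rpl10a*, *Rpl13* and *Rplp2* were the other rises. On the other side, *Rps27* and *Rpl10* were still under controls, with 75.0, 76.8, 82.8 and 71.8 CPM for *Rps27* (log2 fold change -0.23, SE 0.043, adjusted p = 0.00449) and 113, 113, 114 and 116 CPM for *Rpl10* (log2 fold change -0.17, SE 0.034, adjusted p = 0.0066). *Rpl21*, *Rps14*, *Rps15* and *Rps21* also fell, by 0.13 to 0.16. *Rps2* passed in every alternative fit, though its rise lay under a fold minimum of 0.5. The call of *Rpl22l1* was lost without day 6 mouse B or C, and that of *Rpl27* without any 1 day 6 mouse or control mouse B or C, with adjusted p up to 0.110 and 0.237 among all alternatives. In a fit of all 24 mice 2 members were higher and 0 lower, without day 6 mouse B, C or D or control mouse B or C 3 or 4 were higher, and without day 6 mouse A, C or D or control mouse D 3 were lower.

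On day 8, around the onset of seizures, rises outnumbered falls. Of 81 genes 12 were called higher and 1 lower, where 8.41% and 4.87% of 25085 genes were called, and the median log2 fold change was 0.06 against -0.03 over all genes. The rises were led by *Rps2*, with 188, 148, 188 and 147 CPM (log2 fold change 0.58, SE 0.083, adjusted p = 0.00186), and *Rplp0*, the central protein of the stalk that recruits translation factors, with 104, 112, 104 and 109 CPM in controls and 173, 129, 189 and 133 CPM on day 8 (log2 fold change 0.53, SE 0.11, adjusted p = 0.0106). *Rpsa* measured 199, 195, 193 and 199.9 CPM in controls and 279, 239.8, 291 and 256 CPM on day 8 (log2 fold change 0.42, SE 0.061, adjusted p = 0.00184). For all 3, mice A and C were higher than B and D, and all 4 were above every control. *Rps21* was the fall, from 97.1, 101, 93.9 and 102 CPM to 90.7, 84.3, 87.7 and 82.3 CPM (log2 fold change -0.21, SE 0.049, adjusted p = 0.0188). The call was lost without control mouse B or D, with adjusted p up to 0.0672 among all alternatives. A correction for GC content and length moved the count to 6 higher and 10 lower and the median to -0.02. *Rps2*, *Rplp0*, *Rpsa*, *Rpl41*, *Rpl10a* and *Rpl12* passed with it. Without day 8 mouse A, or any 1 control, 5 or 6 members were higher.

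Day 13, when the mice are epileptic, held more rises than any other comparison except with the correction for GC content and length, which gave 18 here and 42 under rapamycin. The test called 41 of 81 genes higher and 0 lower, where 15.6% and 11.3% of 24920 genes were called, and 53 members were higher and 0 lower at an unadjusted p under 0.05 (40.5% of all genes in either direction). DESeq2 called 42 higher and 0 lower. The rises were spread over both subunits, with 17 of 32 small-subunit and 24 of 49 large-subunit genes. The median log2 fold change was 0.27 against -0.04 over all genes and 0.08 over protein-coding genes, and 76 members were above 0, where 46.6% of all genes were. All 4 day 13 mice were above every control for 49 members (17.1% of all genes).

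*Rps2* (chr17:24718116-24721929, plus strand) led, with 201, 252, 197 and 199 CPM against 112, 112, 108 and 114 CPM in controls (log2 fold change 0.91, SE 0.079, adjusted p = 0.000256), a level 1.88 times that of controls. *Rplp0* (chr5:115559467-115563727, plus strand) measured 193, 256, 160.2 and 164 CPM (log2 fold change 0.83, SE 0.13, adjusted p = 0.00237). *Rps27l* (chr9:66946086-66949516, plus strand), a paralog of *Rps27* that p53 is known to induce, measured 5.21, 6.44, 5.74 and 5.58 CPM in controls and 9.64, 12.5, 7.70 and 9.51 CPM on day 13 (log2 fold change 0.76, SE 0.15, adjusted p = 0.00619). No control reached the lowest day 13 mouse for these genes, and mouse B was the highest in each. *Rpl41*, which encodes the smallest protein of the ribosome, measured 82.2, 80.6, 80.0 and 84.7 CPM in controls and 125, 146, 117 and 125 CPM on day 13 (log2 fold change 0.63, SE 0.071, adjusted p = 0.000664). *Rpl12*, at the base of the stalk, measured 85.0, 82.6, 78.7 and 84.4 CPM in controls and 129, 163, 112 and 115 CPM on day 13 (log2 fold change 0.63, SE 0.11, adjusted p = 0.0033). *Rpsa* measured 305, 340.5, 264 and 266 CPM (log2 fold change 0.56, SE 0.080, adjusted p = 0.00165). *Rpl19*, *Rpl27* and *Rpl10a* also rose by more than 0.5, with log2 fold changes of 0.53, 0.52 and 0.51, so that 9 members passed a minimum log2 fold change of 0.5. The largest rises were thus under 2-fold.

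Several of these values depended on the libraries and the fit. With a correction for GC content and length, 18 members were higher and 3 lower (*Rpl37*, *Rps21* and *Rps27*), with a median of 0.12. All 18 were among the 41, and they included the 9 with a rise over 0.5. Without day 13 mice A and B, the deepest libraries of the group, 33 were higher with a median of 0.16. Without control mouse A, B, C or D the count was 27, 26, 24 and 27. *Rps2*, *Rplp0*, *Rps27l*, *Rpl41*, *Rpl12*, *Rpsa* and *Rpl10a* passed under every alternative.

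**Figure D3:**
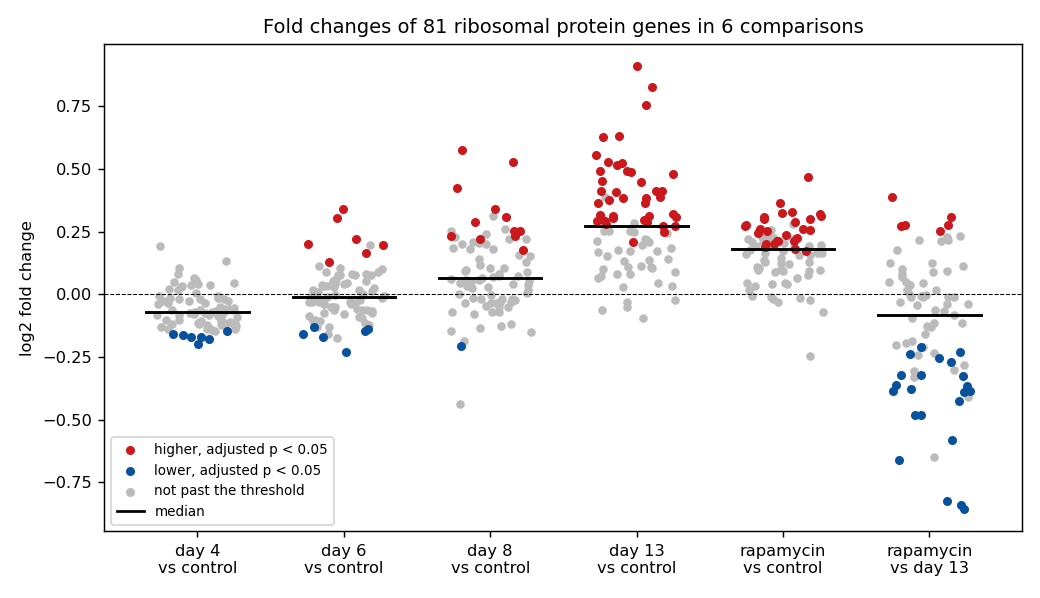
log2 fold change of each of 81 ribosomal protein genes in the 6 comparisons, with points spread sideways for clarity. Red and blue points passed the test as higher or lower (adjusted p under 0.05), grey points did not, and the black line is the median. The rises on day 13 (41 genes, median 0.27) and under rapamycin (27 genes, median 0.18) stand out, while rapamycin against day 13 holds 6 higher and 22 lower genes.

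Rapamycin-treated mice were compared with controls to ask which members differed from the control level after deletion and treatment. Of 81 genes 27 were higher and 0 lower, where 1.26% and 2.31% of 25006 genes were called, with 11 of 32 small-subunit and 16 of 49 large-subunit genes. At an unadjusted p under 0.05, 52 were higher and 0 lower (18.1% of all genes in either direction), and DESeq2 called 37 higher and 0 lower. The median log2 fold change was 0.18 against 0.01 over all genes, no change exceeded 0.5, and 38 members were higher in all 4 treated mice than in every control (5.70% of all genes). *Rpl17*, near the exit of the peptide tunnel, measured 119, 111, 124 and 126 CPM in controls and 171, 149, 166 and 177 CPM under rapamycin (log2 fold change 0.47, SE 0.061, adjusted p = 0.00148). *Rps3a1* measured 137, 142, 140.2 and 141 CPM and 175, 167, 189 and 189.8 CPM (log2 fold change 0.37, SE 0.051, adjusted p = 0.0023). *Rps23*, which lies at the decoding centre, measured 81.6, 81.3, 79.1 and 88.2 CPM and 113, 96.5, 102 and 104 CPM (log2 fold change 0.33, SE 0.055, adjusted p = 0.00583). On day 13 without rapamycin the same genes gave log2 fold changes of 0.07, 0.14 and 0.09 against the same controls, none past the threshold.

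Of the 9 genes with a rise over 0.5 on day 13, 0 passed against controls under rapamycin. *Rps2* measured 129, 121, 119 and 107 CPM (log2 fold change 0.10, SE 0.055, adjusted p = 0.39), *Rplp0* 105, 106, 113 and 99.2 CPM (log2 fold change -0.02, SE 0.050, adjusted p = 0.899) and *Rpl41* 84.3, 80.2, 82.0 and 75.4 CPM (log2 fold change -0.02, SE 0.046, adjusted p = 0.834). *Rpsa* and *Rps27l* gave log2 fold changes of -0.01 (adjusted p = 0.909) and -0.07 (adjusted p = 0.772), and *Rpl10a* and *Rpl27* of 0.04 (adjusted p = 0.746) and 0.23 (adjusted p = 0.191). The other 2 lay above every control in all 4 treated mice, *Rpl12* with 94.8, 89.4, 98.1 and 87.2 CPM (log2 fold change 0.16, SE 0.049, adjusted p = 0.0949) and *Rpl19* with 98.9, 93.0, 93.9 and 90.7 CPM against 85.2, 84.2, 83.1 and 85.5 CPM in controls (log2 fold change 0.16, SE 0.043, adjusted p = 0.0643), and both passed with the correction for GC content and length (adjusted p = 0.0312 and 0.011). A p that misses the threshold does not show equal levels. The count of higher members was 42 with the correction for GC content and length, among them all 27, and 13 in a fit of all 24 mice. It was 15 without rapamycin mouse C, and 17, 13 and 15 without control mouse A, B and C. *Rpl17*, *Rps3a1*, *Rps23*, *Rpl21*, *Rps4x* and *Rps6* passed in every alternative fit, and none of them reached the fold minimum of 0.5.

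**Figure D4:**
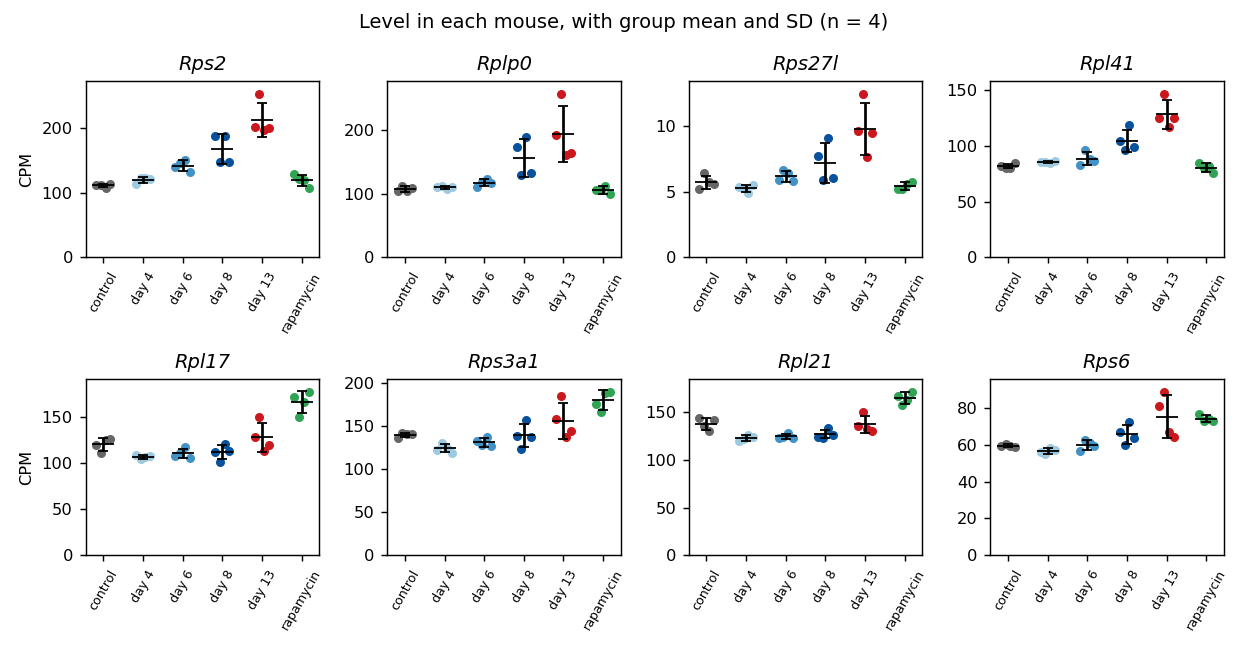
Level of 8 ribosomal protein genes in CPM in each mouse (points), with the mean and SD of the 4 mice of a group (bars). In the upper row *Rps2*, *Rplp0*, *Rps27l* and *Rpl41* are highest on day 13 and near controls under rapamycin. In the lower row *Rpl17*, *Rps3a1* and *Rpl21* are highest under rapamycin, and *Rps6* is about 75 CPM in both day 13 groups.

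The direct comparison of rapamycin with untreated day 13 mice held calls in both directions, among members and among all genes. It called 6 of 81 genes higher and 22 lower (7.41% and 27.2%), where 13.1% and 17.7% of 24274 genes were called. The share of rises was thus under that of all genes. The median log2 fold change was -0.08 against 0.02 over all genes and -0.11 over protein-coding genes. The lower genes were led by *Rplp0* (log2 fold change -0.86, SE 0.13, adjusted p = 0.00159), *Rps27l* (log2 fold change -0.84, SE 0.15, adjusted p = 0.00282), *Rps2* (log2 fold change -0.82, SE 0.092, adjusted p = 0.000483), *Rpl41* (log2 fold change -0.66, SE 0.078, adjusted p = 0.00058) and *Rpsa* (log2 fold change -0.58, SE 0.083, adjusted p = 0.00124), each below every day 13 mouse in all 4 treated mice. Of the 22, 16 belonged to the large and 6 to the small subunit. The higher genes were *Rpl17*, *Rpl21*, *Rpl30*, *Rps21*, *Rpl37* and *Rps27*. *Rpl21*, at 135, 150.4, 132 and 131 CPM on day 13 and 167, 158, 163 and 171 CPM under rapamycin (log2 fold change 0.28, SE 0.065, adjusted p = 0.0112), and *Rpl30*, at 47.9, 50.8, 42.9 and 46.0 CPM and 54.1, 52.3, 59.1 and 59.5 CPM (log2 fold change 0.27, SE 0.078, adjusted p = 0.0247), did not overlap between the groups. The call of *Rpl30* was lost without rapamycin mouse C or D or day 13 mouse A or C, with adjusted p up to 0.075 among all alternatives. *Rpl17* did overlap, since day 13 mouse B, at the level of rapamycin mouse B, reached 149 CPM (log2 fold change 0.39, SE 0.090, adjusted p = 0.0106).

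These counts against day 13 moved with the processing. The correction for GC content and length turned the median to 0.10 and the count to 22 higher and 7 lower, the 7 being *Rplp0*, *Rps2*, *Rps27l*, *Rpl41*, *Rpsa*, *Rpl12* and *Rpl10a*, and the 6 higher genes among the 22. Without day 13 mice A and B, 10 were higher and 10 lower with a median of -0.01. Without rapamycin mouse B, C or D or day 13 mouse B, 9 to 13 were lower, and without rapamycin mouse A, B or C or day 13 mouse A, C or D, 2 or 3 were higher. The 5 leading falls passed under every alternative.

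The study also sets a minimum absolute log2 fold change of 0.5. With it, 9 members were higher on day 13 (8.4% of all genes) and 0 lower (8.06%), 2 were higher on day 8 (2.15%) and 0 lower (1.84%), and 0 passed on day 4 (0.34% of all genes in each direction). On day 6, 0 were higher (0.647%) and 0 lower (0.678%). Under rapamycin 0 were higher (0.372%) and 0 lower (1.04%) than in controls, and against day 13 0 were higher (9.94%) and 5 lower (11.2%). The share of members past this minimum on day 13 was thus near that of all genes.

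Members of known roles differed among themselves. In the stalk, *Rplp0* rose by 0.83 on day 13, and its partners *Rplp1* and *Rplp2* by 0.38 (adjusted p = 0.00484) and 0.37 (adjusted p = 0.006), both lost with the GC and length correction. *Rps6*, the protein that S6 kinase phosphorylates, measured 59.6, 60.6, 59.3 and 58.8 CPM in controls, 81.0, 88.9, 66.9 and 64.1 CPM on day 13 (log2 fold change 0.32, SE 0.095, adjusted p = 0.0358) and 77.0, 73.0, 74.2 and 73.1 CPM under rapamycin (log2 fold change 0.32, SE 0.041, adjusted p = 0.00141). Both groups lay above every control. The day 13 call of *Rps6* was lost without day 13 mouse A or B, without any 1 control and with the GC and length correction, with adjusted p up to 0.331 among all alternatives, while the call under rapamycin passed in every alternative fit, under the fold minimum of 0.5. *Rpl5* and *Rpl11*, which with 5S rRNA form the particle that binds MDM2, gave 0.22 (adjusted p = 0.077) and 0.08 (adjusted p = 0.432) on day 13 and 0.19 (adjusted p = 0.0743) and 0.18 (adjusted p = 0.0443) under rapamycin. Only the last of these 4 values passed, and it did not pass without rapamycin mouse A, B or C or without any 1 control, with adjusted p up to 0.191 among all alternatives. *Rps27a*, which is made as a fusion with ubiquitin, gave 0.20 (adjusted p = 0.0912) on day 13 and 0.20 (adjusted p = 0.0456) under rapamycin, a call lost without any 1 of the 8 mice, with adjusted p up to 0.164. *Rpl13a*, known for a role in silencing of inflammatory mRNAs, gave 0.41 (adjusted p = 0.0459) on day 13, lost without mouse A or B or any 1 control, with adjusted p up to 0.249, and 0.02 (adjusted p = 0.935) under rapamycin.

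Paralogs were set against each other per length. *Rps27l* measured 4.46% ± 0.520 (SD, n = 4) of the level of *Rps27* in controls, 6.25% ± 0.945 on day 8, 7.74% ± 0.945 on day 13 and 3.68% ± 0.365 under rapamycin. The day 13 mice (6.397% to 8.57%) did not overlap with controls (3.99% to 5.15%). *Rpl22l1* measured 24.5% ± 1.77 of *Rpl22* in controls, 31.8% ± 1.14 on day 6, 29.0% ± 2.43 on day 13 and 25.9% ± 1.63 under rapamycin, with day 6 mice (30.6% to 33.4%) above all controls (21.8% to 25.7%). *Rpl7l1*, a protein of ribosome assembly, measured 17.6% ± 0.962 of *Rpl7* in controls, 21.3% ± 0.536 on day 8, 20.4% ± 2.79 on day 13 and 14.8% ± 0.789 under rapamycin. On day 6, and again on day 8, the share of the gene with the lower level was above that of every control in all 4 mice for each of the 3 pairs. For *Rpl22l1* and *Rpl7l1* this was so on day 4 too, with lowest mice at 26.4% and 19.0%. On day 6 the lowest mouse had 5.37% for *Rps27l* and 19.5% for *Rpl7l1*, against 5.15% and 18.7% in the highest control. These are ranges of the mice, without a test. A share also rises where the gene it is divided by falls. On day 6 *Rps27* differed from controls by -14.7% and *Rps27l* by 7.32%, and *Rpl7* by -6.31% and *Rpl7l1* by 5.52%. For *Rpl22* and *Rpl22l1* the differences were -4.97% and 23.4%. Under rapamycin *Rps27* was 15.7% and *Rpl7* 16.9% above controls, which lowers the shares there. *Rpl3l*, known from muscle, and *Rpl39l*, known from testis, stayed under 1% of *Rpl3* and *Rpl39* on average in every group.

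**Figure D5:**
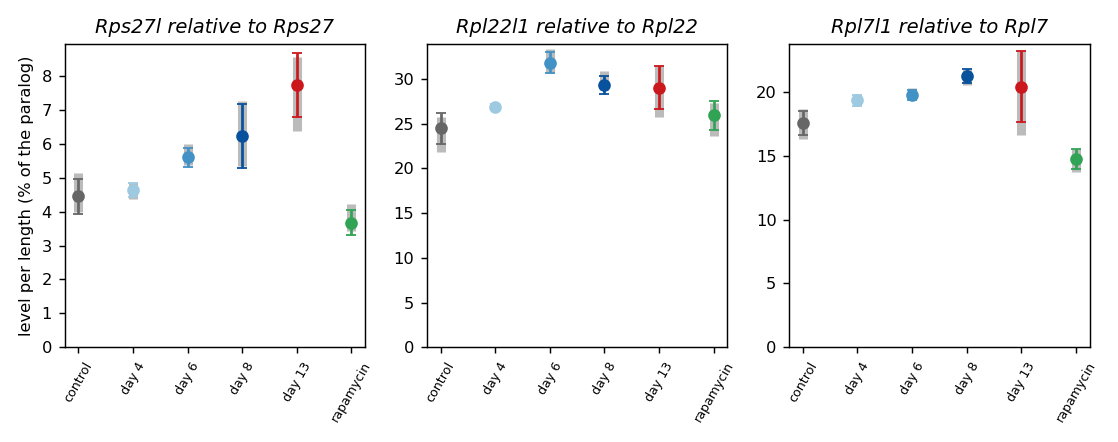
Level per length of 3 paralogs as a percentage of the gene of the pair with the higher level, by group. Points and capped bars are the mean and SD of 4 mice and grey bars run from the lowest to the highest mouse. *Rps27l* reaches 7.74% of *Rps27* on day 13 against 4.46% in controls and 3.68% under rapamycin.

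Properties of the genes went with the changes only weakly. Members are short, with a median exon length of 1781 bases against 4329 bases for protein-coding genes with a mean count over 10, and their median GC content was 50.9% against 49.8%. Across the 81 members, which share libraries and depth, Spearman's rho of the day 13 log2 fold change was 0.12 with GC content, -0.02 with exon length, -0.06 with the number of named pseudogenes and -0.34 with the level per length. The last had the opposite sign for rapamycin against day 13 (0.34). Both comparisons use the same day 13 mice, on opposite sides, so opposite signs are partly built in. For rapamycin against controls the value was 0.16. These correlations are given as descriptions.

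Other genes of the same machinery, from lists chosen by function, were followed in the same fits. Of all genes, 8.41% passed as higher on day 8, 15.6% on day 13 and 1.26% under rapamycin against controls. Of the 4 ribosomal proteins whose symbols the rule leaves out, 3 rose on day 13, *Rpl36al* by 0.76, the scaffold *Rack1* by 0.48 and the ubiquitin-like fusion *Fau* by 0.27, and 0 under rapamycin against controls, also at an unadjusted p under 0.05. Of 14 further TOP mRNAs, 8 rose on day 13 and 5 under rapamycin. *Tpt1*, a growth-associated protein, rose by 1.01 (adjusted p = 0.000763) on day 13 and was 0.09 (adjusted p = 0.444) under rapamycin, whereas the elongation factor *Eef2* rose in both, by 0.36 (adjusted p = 0.00542) and 0.29 (adjusted p = 0.0034). Of 13 genes of mTORC1 signalling to translation, 6 rose on day 13 and 1, the deleted *Tsc1*, fell. *Eif4ebp1*, whose product holds back the cap-binding protein eIF4E, rose by 1.06 (adjusted p = 0.00449) on day 6, 2.87 (adjusted p = 0.000562) on day 8 and 3.34 (adjusted p = 0.00114) on day 13, and was 0.07 (adjusted p = 0.903) under rapamycin. Its paralog *Eif4ebp2* rose by 0.44 (adjusted p = 0.0129) on day 4 and 0.29 (adjusted p = 0.0456) on day 6, and was -0.04 (adjusted p = 0.847) on day 13. *Larp1*, the protein that binds TOP tracts, rose by 0.21 (adjusted p = 0.00601) on day 6, 0.28 (adjusted p = 0.0109) on day 8 and 0.41 (adjusted p = 0.0141) on day 13. Of 8 chaperones and importins of ribosomal proteins, 5 rose on day 8 and 5 on day 13, among them *Grwd1*, a chaperone of RPL3, by 0.84 (adjusted p = 0.00414), and 0 under rapamycin, where 1 was higher and 1 lower at an unadjusted p under 0.05.

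Proteins of the mitochondrial ribosome, which translates the few mRNAs of mitochondrial DNA, were taken as a second ribosome in the same cells. Of 78 genes, 77 were tested. Of all genes, 2.61%, 6.24%, 8.41% and 15.6% passed as higher on day 4, 6, 8 and 13, and 17.7% as lower under rapamycin against day 13. At an unadjusted p under 0.05 in edgeR, 18.4% of all genes passed in either direction on day 4 and 40.5% on day 13. Under rapamycin against controls 18.1% did. This share was not computed for day 6 and day 8, so the unadjusted counts of those days have no background. On day 4, 6, 8 and 13, 0, 12, 30 and 54 of them passed as higher (3, 33, 54 and 59 at an unadjusted p under 0.05), and 0 as lower (3, 0, 0 and 0), with a median log2 fold change of 0.44 on day 13. Under rapamycin 0 passed in either direction against controls in edgeR (5 were higher and 3 lower at an unadjusted p under 0.05), with a median of 0.00, where 27 of 81 cytosolic members passed as higher with a median of 0.18. Against day 13, 47 of the 77 were lower under rapamycin. Whether the cytosolic and mitochondrial sets differ was not tested.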

How the data were processed

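Hippocampal RNA of 24 mice was measured, 4 per group, 1 library each, made as stranded total RNA after rRNA depletion. The authors trimmed reads with CutAdapt 1.16.5, aligned them with STAR 2.7.2b to GRCm38 (mm10) and counted them per GENCODE gene with featureCounts 1.6.4. The deposited values are these read counts per gene, as whole numbers without normalization. The strand setting of the counting and the rule for reads with more than 1 match in the genome are not given in the sources used here, so overlapping genes and genes with near-identical copies are uncertain.

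Symbols, gene types and positions came from GENCODE M21 on the same build, which held 55144 of the 55385 identifiers. Libraries of low depth carry more counting error, and total counts ranged from 28208561 to 126435936. CPM were scaled with TMM factors over all 24 mice. Levels per length used the shortest principal coding transcript. Each comparison was fitted on its 8 mice with edgeR 4.0.16 in R 4.3.3 (filterByExpr, TMM, quasi-likelihood test) across all genes, with Benjamini-Hochberg adjustment over all genes tested. A member passed at an adjusted p under 0.05. The SE of a fold change was derived from the F statistic. The scripts were tested on simulated data. Separate animals were the replicates.

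Alternatives were a fold minimum on the same fit and, as other fits, DESeq2 1.42.0, a fit of all 24 mice, DESeq2 size factors, no filter, the replicate letter as a block, correction for GC content and length, *Ttr* (choroid plexus) or *Xist* (sex) as covariate, pseudogene counts added, and each mouse left out. Day 8 against controls was also fitted with the sample number series as a block. Leaving out day 13 mice A and B was added after the data were seen. The genes named were the 3 largest rises and falls per comparison that passed without overlap between mice, every member past a log2 fold change of 0.5, the 3 highest and 3 lowest per length, paralog pairs and members of known role; others are said to be chosen after their values were seen or complete a short count. The members and lists were chosen with earlier results of these data known. Start windows came from RefSeq. A result on 1 member is not reported here.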

Additional observations from a re-analysis of the deposited data

Results flagged for a closer look

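In groups of 4, a mouse was looked at again where its gap to the nearest other mouse took more of the range of the group than Dixon's critical value allows. Over the 36 named genes and the summed level this gave 10 of 216 groups, and chance gives about 1 in 20. Day 13 mouse B, the deepest library, was high for *Rps2* (252 CPM, the others 197 to 201), *Rps23* (103 CPM, the others 83.9 to 85.7) and *Rps27* (101 CPM, the others 81.8 to 83.8). Day 4 mouse A was low for *Rplp1* (159 CPM, the others 186 to 191) and *Rplp2* (48.3 CPM, the others 59.3 to 61.1). Day 8 mouse C was high for *Rpl13a* (15.9 CPM, the others 12.2 to 12.7) and *Rpl27* (33.7 CPM, the others 28.0 to 28.6). The others were control mouse D for *Rpl5* (100.4 CPM, the others 93.1 to 94.2), day 4 mouse C for *Rpl3* (269 CPM, the others 260.0 to 261) and rapamycin mouse C for *Rpl10* (139 CPM, the others about 128).

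For the summed level and 11 genes, all mice of 1 *Tsc1-Cre+* group lay above every control and all mice of another lay below every control. The difference between those groups was not tested. The summed level averaged 6448 CPM on day 4, below the controls, while the means above them were 8305 CPM (day 13) and 7727 CPM (rapamycin). On day 4, on day 13 and under rapamycin *Rps6* averaged 56.7, 75.3 and 74.4 CPM and *Rpl5* 86.9, 112 and 109 CPM. *Rpl21* averaged 123 CPM on day 4 and 124 CPM on day 6 against 165 CPM under rapamycin, and *Rps27* 78.9 and 76.6 CPM against 103 CPM. The other genes were below controls on day 4 and above them under rapamycin. *Rpl11* averaged 68.8 and 85.8 CPM, *Rpl17* 106 and 166 CPM, *Rpl30* 42.6 and 56.2 CPM, and *Rpl7* 139 and 176 CPM. *Rps23* averaged 74.5 and 103.7 CPM, *Rps27a* 78.0 and 97.6 CPM, and *Rps3a1* 124 and 180.1 CPM.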

How the results depend on the processing

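Of the 71 calls among the named genes over the 6 comparisons, none changed direction under any alternative and 25 passed in every alternative fit, the fold minimum not counted. The correction for GC content and length lost 17 of them and, with the replicate block, 30. It moved the median of day 4 from -0.072 to -0.0516 (-0.0522 with the block). For members higher or lower it gave 14 lower on day 6, 6 higher and 10 lower on day 8, 18 higher and 3 lower with a median of 0.12 on day 13, 42 higher under rapamycin, and 22 higher and 7 lower with a median of 0.10 for rapamycin against day 13. With the replicate block added, these were 4 lower on day 4, 4 higher on day 6, 4 higher and 5 lower on day 8, 10 higher and 1 lower with a median of 0.12 on day 13, and 20 higher and 5 lower with a median of 0.11 for rapamycin against day 13. The cause was not tested.

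A fit of all 24 mice called 0 lower on day 4, 2 higher and 0 lower on day 6, 0 lower on day 8, 13 higher under rapamycin and 11 higher against day 13. DESeq2 called 21 lower on day 4 and 19 higher and 2 lower on day 8. The fold minimum of 0.5 left 0 on day 4, 0 and 0 on day 6, 2 higher and 0 lower on day 8, 9 higher on day 13, 0 under rapamycin, and 0 higher and 5 lower against day 13. With *Xist* as covariate 0 were lower on day 4 and 3 higher on day 6. With *Ttr* as covariate 3 were lower on day 4, 7 higher on day 8, and 3 higher and 12 lower for rapamycin against day 13, where no filter gave 3 higher. Without day 13 mice A and B, chosen after seeing the data, that comparison gave 10 higher and 10 lower with a median of -0.00679.

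The letters A to D name different animals in each group. Same-letter mice deviated together with correlations from -0.18 to 0.18, and in no comparison did all 4 pairs exceed 0.1, so the letters were not taken as pairs. The replicate block gave 4 higher on day 6, 7 higher and 0 lower on day 8 and 2 higher for rapamycin against day 13.

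Leaving out 1 mouse at a time gave 1 to 7 lower on day 4, 3 to 7 higher and 3 to 6 lower on day 6, 5 to 18 higher and 0 to 3 lower on day 8, 24 to 54 higher on day 13, 13 to 35 higher under rapamycin, and 2 to 9 higher and 9 to 24 lower against day 13. Medians ranged from -0.08 to -0.06 on day 4, -0.03 to 0.01 on day 6, 0.02 to 0.10 on day 8, 0.20 to 0.32 on day 13, 0.15 to 0.20 under rapamycin, and -0.152 to -0.0242 against day 13. The F test called 64 to 77 members under its alternatives. Depth limits the members with few counts, such as *Rpl3l* (18.1 per mouse) and *Rpl24* (126 per mouse).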
